A study of Mus musculus with 2 samples.

Results

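Among the 4811 GATA4-occupied sites that the peak caller SPP reported in adult mouse liver, 402 shared no base with any of the 5867 peaks called by MACS2 from the same reads. These SPP-only peaks made up 8.36% of the SPP list. The other 4409 SPP peaks, here called common, met a MACS2 peak by at least 1 bp. A further 1496 MACS2 peaks, or 25.5% of the MACS2 list, met no SPP peak. The members were thus chosen by the positions of the peak calls. The list number, the width and the distance to MACS2 peaks are given below as descriptions, without a test. Sequence and location, which the rule did not use, were compared with the common peaks.

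Chromatin of whole liver from C57BL/6 x Sv129 mice aged 2 to 3 months was immunoprecipitated with the GATA4 C-20 antibody (sc-1237), and liver DNA taken without antibody served as the input background. This age is that of the labels, and the study's methods give a slightly older range for the ChIP-seq mice. The labels name 1 ChIP sample and 1 input sample, and the study's methods describe replicates of pooled mice that were merged into 1 list, so no value per animal exists. No genotype or treatment is compared, and whole liver mixes hepatocytes with endothelial, stellate, Kupffer and bile duct cells. Every peak carries a score of 1000, and the files hold no read counts, so the depth behind a single peak is unknown. Regions are the units of each test, and the p-values measure the spread among regions of 1 pooled sample, not among animals.

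GATA4 is a zinc-finger transcription factor that binds the motif WGATAR, in which W is A or T and R is A or G. In the liver it is best known from the developing organ and from sinusoidal endothelial cells, and it is also expressed in hepatocytes, where GATA factors can act on genes of secreted proteins and of intermediary metabolism. A peak caller compares the reads of a ChIP sample with the input. Callers differ in how they model the strand shift of the reads and the local background. The study's methods ordered SPP peaks by signal and MACS2 peaks by p-value, and cut both lists at thresholds of reproducibility. Why the lists meet only in part was not tested. Whether MACS2 called an SPP-only site below its threshold was not tested either.

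The sequences below are from SPP-only peaks at genes of liver function, and they are shown because each held a GATA motif close to its midpoint. Each line is the plus strand of mm9, 5′ to 3′, in lower case, with the WGATAR match, on either strand, in capitals. The stretch reaches 20 bases to each side of the match that lay nearest to the peak midpoint outside annotated exons.
Crp promoter side, chr1:174627717-174627762: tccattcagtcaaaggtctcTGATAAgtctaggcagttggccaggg
Baat promoter side, chr4:49519446-49519491: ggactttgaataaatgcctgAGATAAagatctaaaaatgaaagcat
Slc7a2 promoter side, chr8:41947043-41947088: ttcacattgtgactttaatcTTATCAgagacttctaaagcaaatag
Apob upstream, chr12:7957145-7957190: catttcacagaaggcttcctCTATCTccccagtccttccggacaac
Apob intron 15, chr12:7998619-7998664: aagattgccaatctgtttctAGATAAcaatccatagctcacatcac
Tat downstream of the start, chr8:112528369-112528414: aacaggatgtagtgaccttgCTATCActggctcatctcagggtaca
Lipc upstream, chr9:70825419-70825464: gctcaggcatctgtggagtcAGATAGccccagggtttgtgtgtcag

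The match in the Crp peak was centred 7 bp from the peak midpoint, as was that in the Tat peak. Distances of 18 bp and 20 bp were found at Baat and Slc7a2. At the upstream and intronic peaks of Apob the matches lay 26 bp and 42 bp from the midpoint.

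Some members held several matches, and others held none, and both kinds are shown for contrast. The peak in intron 6 of Pparg carried 5 separate WGATAR matches within 175 bp, and that in intron 12 of Scp2, which encodes a sterol carrier, carried 10. All but the last of these lay in tandem GATA repeats and were counted also where they overlapped. The 100 bases around the midpoints of the SPP-only peaks with the numbers 24 and 231, near the head of the list, held none.
Pparg intron 6, chr6:115415836-115416010: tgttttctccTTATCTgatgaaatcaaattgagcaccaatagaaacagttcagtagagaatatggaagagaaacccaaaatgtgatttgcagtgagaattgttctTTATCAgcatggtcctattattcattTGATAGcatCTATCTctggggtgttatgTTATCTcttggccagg
Scp2 intron 12, chr4:107739221-107739377: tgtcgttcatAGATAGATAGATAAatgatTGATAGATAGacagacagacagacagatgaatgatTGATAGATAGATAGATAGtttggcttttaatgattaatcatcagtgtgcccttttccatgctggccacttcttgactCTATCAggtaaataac
Number 24, chr13:77578204-77578303: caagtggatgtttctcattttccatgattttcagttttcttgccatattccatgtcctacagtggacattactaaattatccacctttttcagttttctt
Number 231, chr3:5860639-5860738: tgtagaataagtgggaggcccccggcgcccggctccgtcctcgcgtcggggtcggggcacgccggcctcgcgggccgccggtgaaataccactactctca

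The SPP-only peaks came mostly from the end of the SPP list. Their median list number was 4034.5, with a range of 24 to 4808, while that of the common peaks was 2221. For the test of reproducibility the study's methods ordered SPP peaks by their signal, and whether the numbers keep that order is not stated in the sources used here. Of the first 500 peaks 4 were SPP-only (0.8%), and of the peaks 2501 to 3000 the share was 6.4%. It was 22.2% among the peaks 4001 to 4500 and 32.5% among the last 311. In the SPP list 361 of the 402 had a width of 320 bp, against 1127 of the 4409 common peaks, and no SPP-only peak was wider. For this reason the motif was also counted in windows of equal width around the midpoint, and each share was also compared with the common peaks numbered 2406 and above, which numbered 2022 beside 384 SPP-only peaks.

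**Figure D1:**
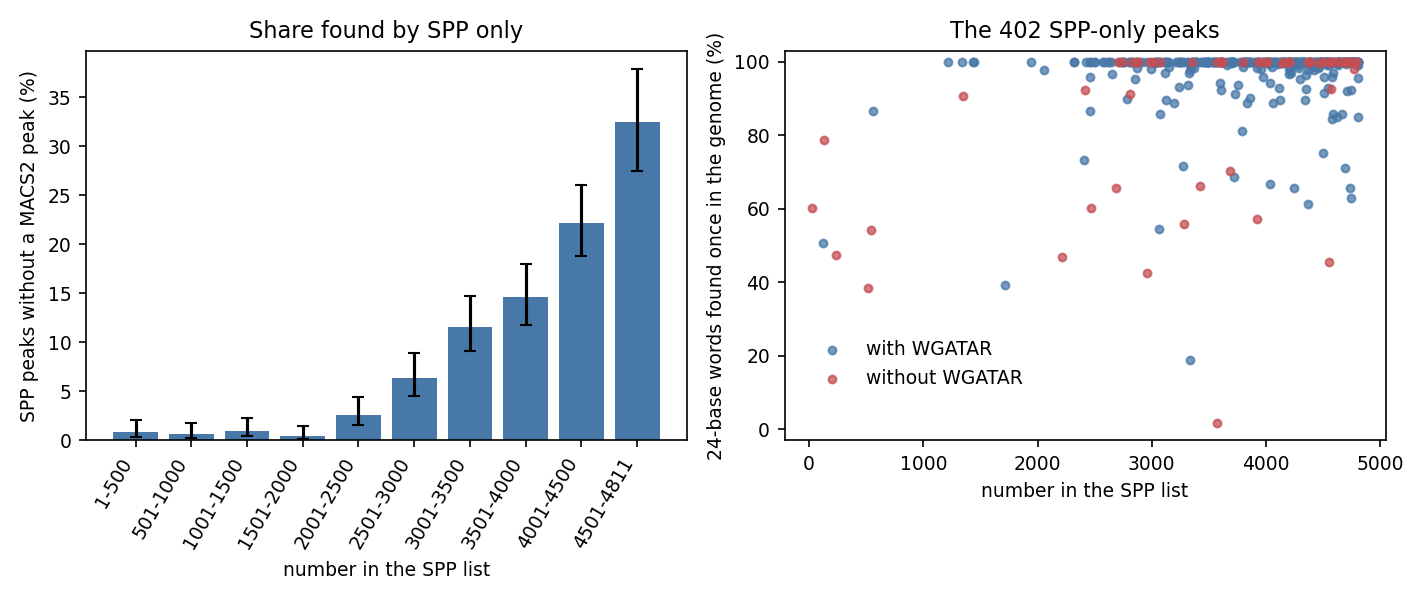
The left panel plots the percentage of SPP peaks without a MACS2 peak against the number in the SPP list, with Wilson 95% intervals, and the bars rise from 0.8% in the first bin to 32.5% in the last. The right panel plots, for each of the 402 SPP-only peaks, the percentage of its 24-base words found once in the genome against its number, in blue with and in red without WGATAR, and the 7 peaks numbered below 1000 all lie under 90%.

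Most of the 402 peaks lay far from any MACS2 peak. The median gap was 53109 bp and the smallest 134 bp, at a peak in intron 1 of D4Bwg0951e with 3 WGATAR matches. Only 7 lay within 500 bp, 74 between 500 bp and 10000 bp, and 24 beyond 1000000 bp. Just outside the rule, the common peaks that shared least with MACS2 shared 80 bp, the whole of a peak 80 bp wide. The number of SPP-only peaks was 402 also when at least 50% of an SPP peak had to be covered, and 395 when each MACS2 peak was widened by 500 bp on each side.

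The 7 SPP-only peaks numbered below 1000 differed from the other 395 in their sequence. They were the numbers 24, 121, 129, 231, 519, 545 and 562, and this split was made after the values were seen and is not tested. Of these 7, 2 held a WGATAR, against 340 of the 395 and against 901 of the 992 common peaks numbered below 1000. In 6 of the 7 at least 1 word of 48 bases occurred again elsewhere in the genome, against 22 of the 395 and 18 of the 992. Number 24, in intron 20 of 2210408I21Rik, had 73.3% of its 48-base words found once, and its most frequent word occurred 47 times. Number 231 had 65.1% GC, stood 284450 bp upstream of Pxmp3 (a peroxisome assembly gene) and had 75.8% unique 48-base words. Numbers 121 and 519 lay in introns of the neural adhesion genes Chl1 and Mdga2, and 5 of the 7 lay more than 50 kb from any annotated start site.

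Over the whole set, sequence that a read of 48 bases cannot place was more frequent in the SPP-only peaks. In 14 of 402 (3.48%, 95% Wilson interval 2.09 to 5.76) fewer than 90% of the 48-base words were unique, against 43 of 4409 common peaks (0.975%, 0.725 to 1.31). The difference of 2.51 percentage points passed the test (Fisher's exact test, two-sided, Benjamini-Hochberg adjusted exact p = 5.6e-04 over 16 tests). Among the peaks numbered 2406 and above the shares were 2.34% and 1.04%, with an adjusted exact p of 0.078. The 14 included number 3339, which stood 1473 bp upstream of Maml2, a Notch coactivator, and held a 48-base word found 240862 times. They also included number 3573, in intron 3 of Mthfd2l, a mitochondrial folate enzyme, with 8.33% unique words. A group of 3 SPP-only peaks lay at the beginning of the assembled sequence of chromosome 11, nearest to Sfi1, and their unique 24-base words made up 42.4% to 68.7%.

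The GATA motif was present in most SPP-only peaks, at a share whose difference from the common peaks did not pass the test. WGATAR was found in 342 of 402 SPP-only peaks (85.1%, 81.3 to 88.2) and in 3655 of 4409 common peaks (82.9%, 81.8 to 84.0). The difference of 2.18 points had an interval of -1.79 to 5.53, and Fisher's exact test gave an adjusted exact p of 0.38. The shorter cores WGATA or GATAR occurred in 379 SPP-only peaks (94.3%) and in 92.9% of common peaks (adjusted exact p = 0.38). In the central 100 bp, WGATAR was present in 291 SPP-only peaks (72.4%, 67.8 to 76.5) and in 74.3% of common peaks (adjusted exact p = 0.43). In windows of 200 bp around the midpoint the shares were 82.6% and 83.9%, and in windows of 320 bp 86.6% and 87.1%.

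Among the peaks numbered 2406 and above, whole SPP-only peaks held WGATAR more often than common peaks. The shares were 86.2% (331 of 384) and 78.6% (1589 of 2022), a difference of 7.61 points with an interval of 3.43 to 11.2 (Fisher's exact test, adjusted exact p = 0.0014). For the central 100 bp the same subset gave 73.2% and 69.7% (adjusted exact p = 0.24). The common peaks of this subset had a median width of 320 bp and a mean of 221 bp, against a mean of 303 bp for the SPP-only peaks, so whole SPP-only peaks covered more sequence. In the last bin of the list, 86.1% of the SPP-only peaks (87 of 101) and 78.6% of the common peaks held a WGATAR, and 71.4% of these common peaks were 320 bp wide.

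More than 1 WGATAR was frequent. Of the SPP-only peaks, 148 held 1 match, 132 held 2, 41 held 3 and 21 held 4 or more, and 60 held none. At least 2 matches were found in 194 SPP-only peaks (48.3%, 43.4 to 53.1) and in 1529 common peaks (34.7%, 33.3 to 36.1), which differed by 13.6 points (Fisher's exact test, adjusted exact p = 4.8e-07). The size of this difference moved with the stretch of sequence read. In 200 bp around the midpoint the shares were 34.8% and 35.0%, in 100 bp 14.7% and 17.8%, and in 320 bp 50.7% and 44.8% (adjusted exact p = 0.056). In 500 bp they were 62.2% and 56.2% (adjusted exact p = 0.047), and among peaks of 320 bp in both groups 51.5% and 41.7% (adjusted exact p = 0.0049). Of the 21 peaks with 4 or more matches, Cyp26a1, the retinoic acid hydroxylase, was the nearest gene of one with 6, at 162646 bp. Peaks with 5 lay in intron 1 of Lta4h, a leukotriene hydrolase, in intron 1 of Tusc3, a subunit of protein N-glycosylation, and 4803 bp upstream of Raph1, an actin regulator. Peaks with 4 lay, among others, in intron 3 of Cd47, a surface protein that restrains phagocytes, and in intron 1 of Elf1, an ETS factor.

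The matches were concentrated at the midpoint. In the 20 bp to the left and to the right of it there were 21.6 and 22.9 matches per 100 SPP-only peaks, against 24.9 and 24.4 in common peaks. Between 100 bp and 120 bp to the right the SPP-only peaks had 6.72 matches and the common peaks 4.11. The word AGATAA made up 40.9% of the 631 matches, TGATAA 30.7%, AGATAG 16.6% and TGATAG 11.7%, and among the 5734 matches of the common peaks these were 44.6%, 26.8%, 17.5% and 11.02%.

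**Figure D2:**
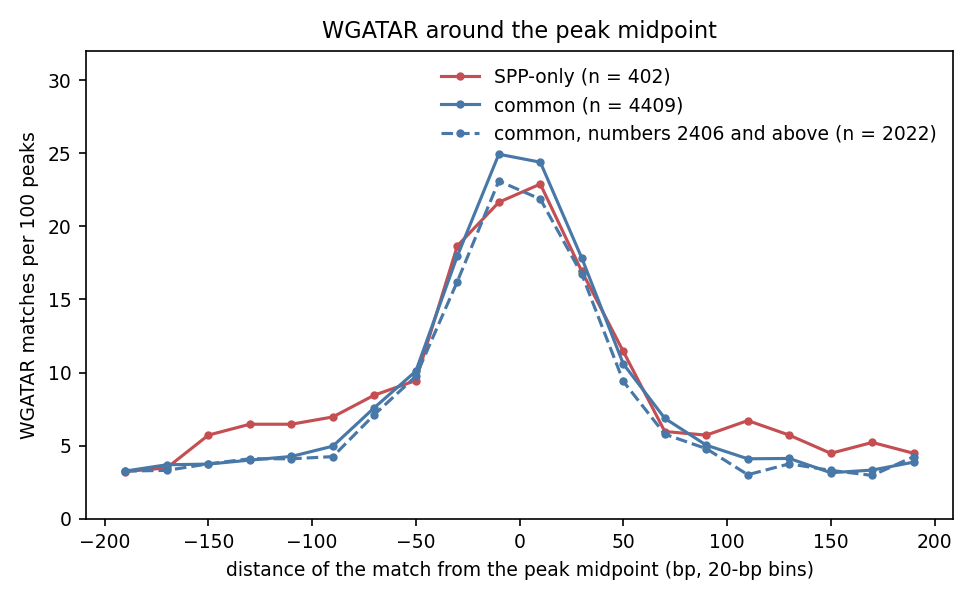
WGATAR matches per 100 peaks in 20-bp bins are plotted against the distance from the peak midpoint for SPP-only peaks, common peaks and the common peaks numbered 2406 and above. All 3 lines peak at the midpoint, with 22.9 matches for the SPP-only and 24.9 for the common peaks in their highest bins, and the SPP-only line is the higher one between 80 bp and 160 bp on both sides.

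To give the background of the motif, an equally wide window was read 5000 bp downstream along the plus strand. There WGATAR was found in 49.3% (44.4 to 54.1) of the windows for whole SPP-only peaks and in 20.4% (16.7 to 24.6) of those for their central 100 bp. In 229 pairs only the central 100 bp held the motif, and in 20 pairs only the window did. The windows beside the common peaks held it in 31.9% at whole width and in 17.3% at 100 bp. The peaks found by MACS2 only held the motif less often than the SPP-only peaks. In the central 200 bp the shares were 56.1% (839 of 1496) and 82.6% (332 of 402), a difference of 26.5 points with an interval of 21.8 to 30.7 (Fisher's exact test, adjusted exact p = 9.8e-23). The size of this difference moved with the window. In the central 100 bp the shares were 36.2% and 72.4%, and in 500 bp around the midpoint 77.1% and 89.6%. The MACS2-only peaks had a median width of 632 bp, and the part of peak width in this difference was not tested.

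The SPP-only peaks had less GC than the common peaks. In the central 200 bp the mean was 45.2% ± 5.78 (SD over 402 peaks) against 50.02% ± 7.24 (SD over 4409 peaks), and the MACS2-only peaks had 52.6% ± 9.33. The windows 5000 bp to the right had 42.8% and 45.1% for the SPP-only and the common peaks. CpG-rich sequence, defined as over 50% GC and an observed-to-expected CpG ratio over 0.6 in 500 bp around the midpoint, was found at 15 SPP-only peaks (3.73%, 2.27 to 6.06) and at 400 common peaks (9.07%, 8.26 to 9.96). Fisher's exact test gave an adjusted exact p of 3.5e-04 for this difference. Of the 15 CpG-rich SPP-only peaks 4 held a WGATAR, and of the 400 CpG-rich common peaks 243 did (60.8%).

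Gene starts were less often the place of an SPP-only peak. Midpoints lay within 1 kb of an annotated transcription start site in 49 SPP-only peaks (12.2%, 9.34 to 15.8) and in 790 common peaks (17.9%, 16.8 to 19.1), a difference of -5.73 points with an interval of -8.80 to -2.00 (Fisher's exact test, adjusted exact p = 0.0083). Of these 49, 9 were CpG-rich, against 357 of the 790 (45.2%). Among peaks without CpG-rich sequence, a comparison added after the data were seen, the shares within 1 kb were 10.3% of 387 and 10.8% of 4009 (adjusted exact p = 0.86). Peaks touching the promoter proximal region, from 5 kb upstream of a start to the end of the first exon, made up 20.4% and 26.4% (adjusted exact p = 0.020). With protein-coding genes alone these shares were 18.9% and 23.3%, which missed the threshold (adjusted exact p = 0.095). In the MACS2-only peaks 26.3% of midpoints lay within 1 kb of a start (adjusted exact p = 5.5e-09 against the SPP-only peaks).

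Other parts of genes held SPP-only and common peaks at shares whose differences did not pass the test. The first intron was met by 29.1% and 28.1% of the peaks, the rest of the gene by 36.8% and 34.2%, and the last exon with 5 kb downstream by 12.7% and 16.01%. Intergenic peaks made up 31.3% (27.0 to 36.0) and 29.1%. A peak can meet several of these classes through different transcripts, so the shares add to more than 100%. By the midpoint alone, 188 SPP-only peaks lay in introns (46.8%) and 17 in exons of the longest transcript of a protein-coding gene, from which intron and exon numbers are counted here. The other 197 lay outside these transcripts, and some of them lay within others. The median distance to the nearest start was 13403 bp for the SPP-only and 10568 bp for the common peaks, and 75 SPP-only midpoints (18.7%) lay beyond 50 kb.

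**Figure D3:**
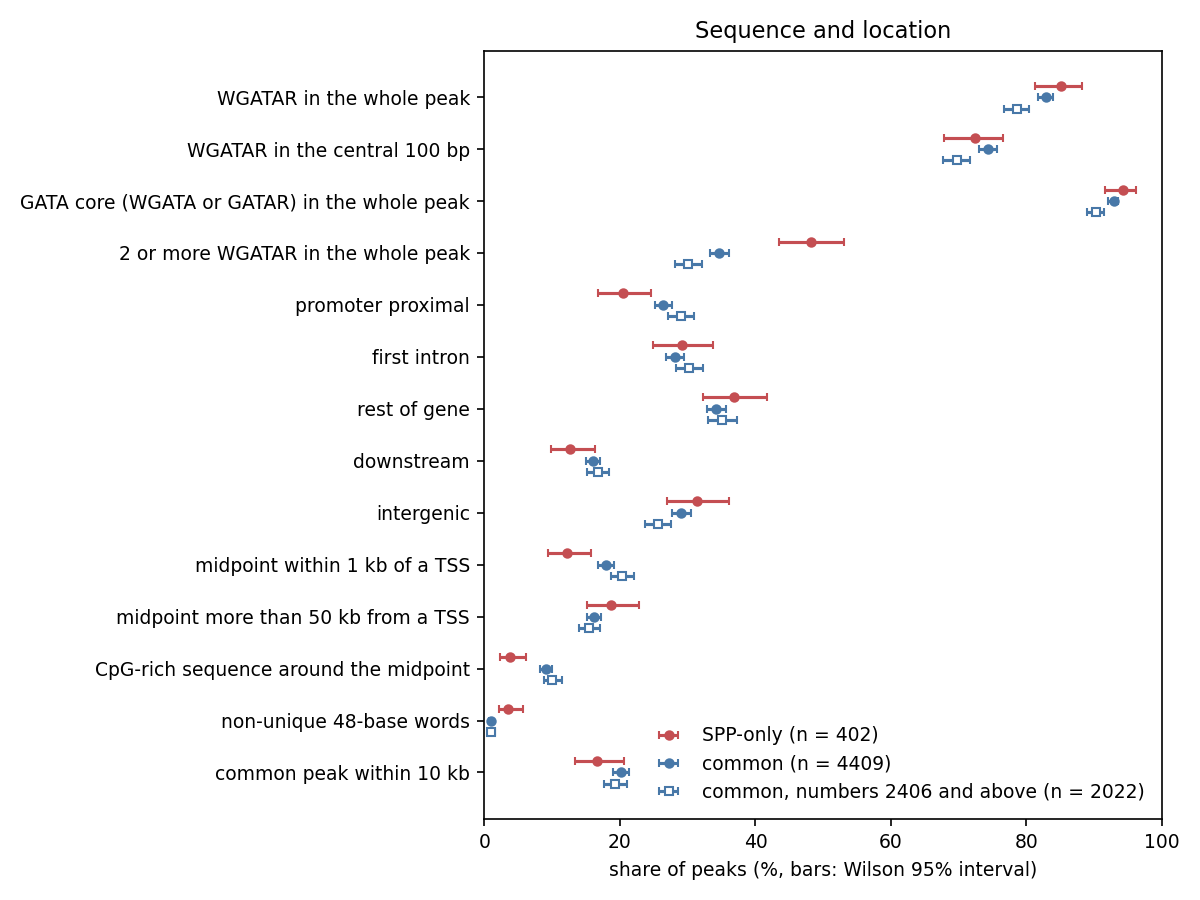
The share of peaks with each sequence or location class is plotted with its Wilson 95% interval for SPP-only peaks, common peaks and common peaks numbered 2406 and above. The red SPP-only points lie left of the blue ones for promoter proximal peaks, starts within 1 kb and CpG-rich sequence, and right of them for at least 2 WGATAR and non-unique words.

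**Figure D4:**
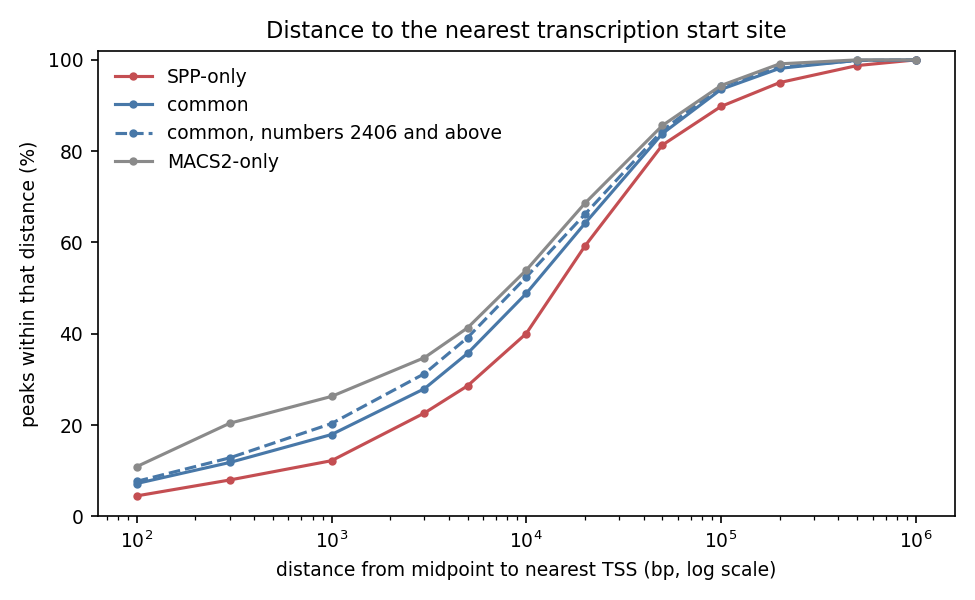
The cumulative percentage of peaks is plotted against the distance from the midpoint to the nearest transcription start site on a log scale. At 1000 bp the curves stand at 12.2% for SPP-only, 17.9% for common and 26.3% for MACS2-only peaks, and at 50000 bp at 81.3%, 83.9% and 85.6%.

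Common peaks lay at some distance from most SPP-only peaks. A common peak lay within 10 kb of 67 SPP-only peaks (16.7%) and of 886 common peaks (20.1%), and within 50 kb the shares were 42.3% and 48.1%. Since the members were chosen by their distance from MACS2 peaks, on which the common peaks lie, these shares are a description. SPP-only peaks seldom lay together, since 9 of 402 had another one within 2000 bp and 41 within 50000 bp. Numbers 2688 and 3682, in intron 2 of Cdk8, a kinase of the Mediator complex, overlapped by 63 bp. By chromosome, the SPP-only share of the SPP peaks ranged from 4.84% on chromosome 17 (9 of 186) to 14.3% on chromosome X (5 of 35).

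For genes, each peak was given to the nearest protein-coding start within 50 kb of its midpoint. In this way 300 of the 402 SPP-only peaks (74.6%) reached 283 genes, or 1.27% of the 22238 genes annotated, while the common peaks reached 2589 genes, or 11.6%. Of the 283 genes 108 (38.2%) were also the nearest gene of a common peak, which is 4.17% of the 2589. The other genes were nearest to no common peak. The nearest gene need not be the one that a site acts on.

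The lists below were chosen with earlier results of these data known, and no list was tested. For each of them the share over all protein-coding genes was 1.27% by SPP-only and 11.6% by common peaks. Carbohydrate genes were reached at 3 of the 24 members of the list of glucose, glycogen and insulin genes (12.5%), and by common peaks at 11 (45.8%). G6pc, the catalytic subunit of glucose-6-phosphatase and the last step of glucose release, had an SPP-only peak with 2 WGATAR matches over its first exon, 136 bp after the start and 2714 bp from the nearest common peak. The peak of Pfkfb3, an enzyme that sets the rate of glycolysis, lay 13843 bp upstream with 2 matches.

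Amino acid and urea cycle genes were reached at 3 of 19 (15.8%), and by common peaks at 6. Tat, the tyrosine aminotransferase, had an SPP-only peak 13979 bp downstream of its start with 1 match, whose nearest common peak was 685375 bp away. Bhmt, which remethylates homocysteine, had one 1842 bp upstream that held no WGATAR, next to a common peak at 1729 bp.

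Of 28 fatty acid and triglyceride genes 2 were reached (7.14%), and 11 by common peaks. Lipc, the hepatic lipase, had a peak 25381 bp upstream with 2 matches, and Pparg, the adipogenic nuclear receptor, had one in intron 1 with 1 match and one in intron 6 with 5. None of the 26 listed cholesterol and bile acid genes was reached, against 12 by common peaks, but Baat and Cyp39a1, which were reached, are not on that list. Apob, the protein of very low density lipoprotein, was the only one of 52 genes of plasma proteins, coagulation and complement, against 13 by common peaks. Its SPP-only peaks, 27312 bp upstream with 3 matches and in intron 15 with 2, had no common peak within 118463 bp.

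Of 98 cytochrome P450 genes 4 were nearest to an SPP-only peak (4.08%) and 23 to a common one, and none to both. They were Cyp39a1, an oxysterol hydroxylase, 4557 bp after its start, the drug-metabolising Cyp3a16 and Cyp3a25, and Cyp4b1. The Cyp4b1 peak lay in intron 1 of the longest transcript, 1416 bp upstream of the nearest start. Of its 24-base words 63.0% were unique. Each of the 4 peaks held 1 or 2 WGATAR matches. Cyp3a16 and Cyp3a25 belong to a family of close copies on chromosome 5, where the nearest start can name a neighbour.

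Of 20 liver transcription factor genes none was reached, and 10 were by common peaks. Over all protein-coding genes SPP-only peaks reached 1.27% and common peaks 11.6%. A count of 0 or 1 by SPP-only peaks in lists of this size therefore does not set a list apart. Gata4 itself, 1 of 8 GATA and FOG genes, had an SPP-only peak 8010 bp after its nearest start with 1 match, 50307 bp from the nearest common peak. Among the lists of other liver cells, 1 of 40 endothelial genes was reached, Clec4g, a sinusoidal lectin, 9589 bp from its start, while common peaks reached 34. Clec4g was also the nearest gene of a common peak. Its SPP-only peak lay closer to the pseudogene Gm9814, 16 bp upstream of that start. SPP-only peaks reached none of 21 stellate cell, 15 Kupffer cell and leukocyte and 7 bile duct genes, and common peaks reached 2, 0 and 0. Which cells of the liver a peak came from was not tested. For comparison, none of 79 ribosomal protein genes and 1 of 1113 olfactory receptor genes, Olfr49, was nearest to an SPP-only peak. When the start had to lie within 10 kb, 8 genes of these lists were reached.

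**Figure D5:**
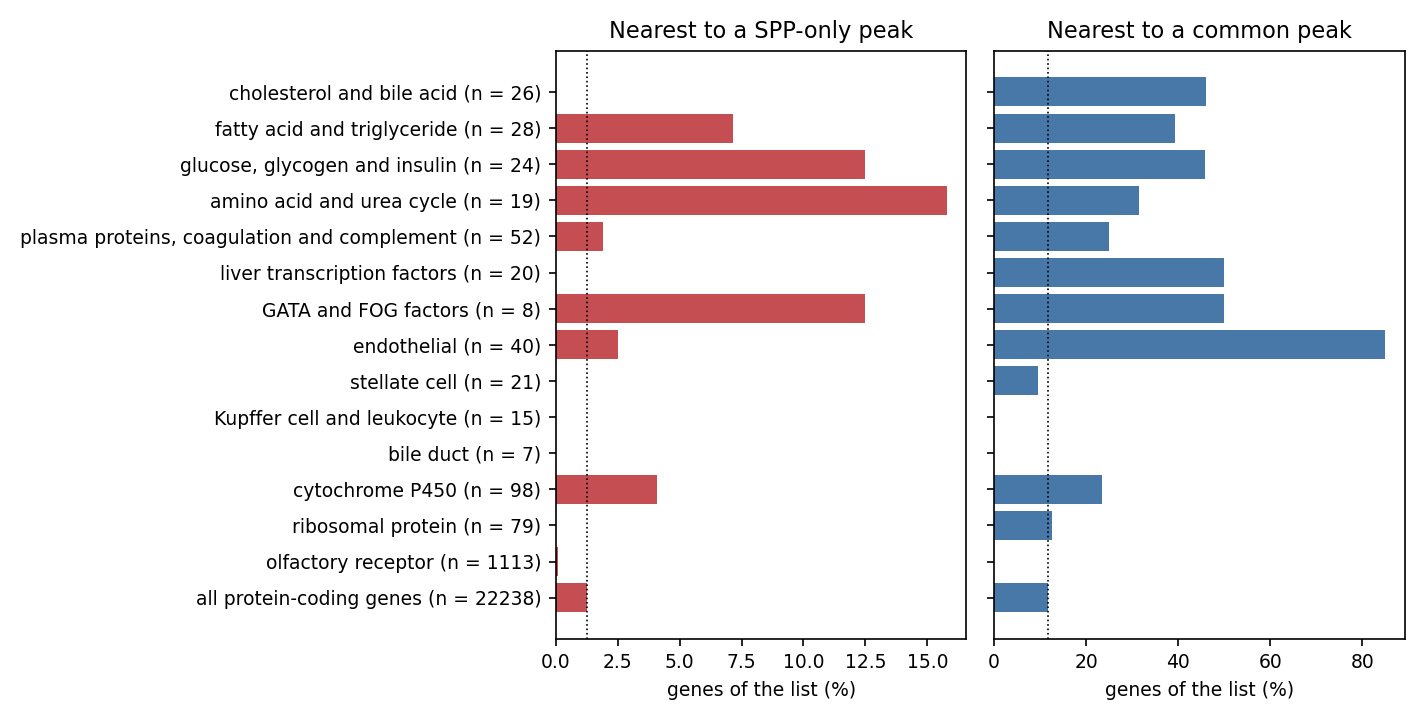
Bars give the percentage of the genes of each list that are nearest to an SPP-only peak (left) or to a common peak (right) within 50 kb, with the share over all protein-coding genes as the dotted line, at 1.27% and 11.6%. The amino acid list has the longest bar on the left at 15.8%, and the endothelial list has the longest on the right at 85.0%.

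The SPP-only peaks within 1 kb of a start lay at genes of varied function, most of them on none of these lists. Among the 10 with the lowest numbers within 1 kb of a start were those of Crp, the acute-phase C-reactive protein (-454 bp), Tbc1d1, a regulator of glucose transporter traffic (-86 bp), and Pip5k1a, a phosphoinositide kinase (-46 bp). Dnaja3, a mitochondrial chaperone (-238 bp), Bptf, a chromatin remodeller (-793 bp), Zfp410, a zinc-finger factor (-882 bp), and Clec2d, a lectin (-129 bp), were others. Those of Dnaja3 and Clec2d held no WGATAR. In the longest transcript of the gene, the Tbc1d1 peak lay in intron 14 and the Bptf peak in intron 26. Both distances are thus to starts of other transcripts. Named after their values were seen are Baat, which joins bile acids to amino acids (-22 bp), Kmo of tryptophan breakdown (70 bp), Slc7a2, a carrier of cationic amino acids (-704 bp), and Apof, an apolipoprotein (545 bp). The aldo-keto reductase genes Akr1e1 and Akr1c19 had peaks at -86 bp and -31 bp, and the retinol dehydrogenase gene Rdh9 at -170 bp. The peaks of Akr1c19 and Rdh9 lay in intron 1 of the longest transcript, so their nearest starts also belong to other transcripts. Of the 49 peaks within 1 kb, 38 (77.6%) held a WGATAR, against 74.6% of the 790 common ones.

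A set of 15 genes was nearest to at least 2 SPP-only peaks, namely Acot12, Apob, Cblb, Cdk8, Clec2d, Dlc1, Elf1, Gpr98, Peli1, Pelo, Pparg, Sfi1, Slc17a2, Zfp410 and Zhx3. Clec2d and Sfi1 had 3. Acot12, a hydrolase of acetyl-CoA in the liver, had peaks with 3 matches and 1 match, and no common peak within 2049680 bp. Slc17a2, of a family of phosphate transporters, had peaks in intron 10 and exon 12 with 2 matches each. Both peaks given to Pelo lay in intron 1 of Itga1, a collagen-binding integrin subunit, with none and 3 matches. Dlc1, a GTPase-activating protein, had one in intron 1 with 2 matches and one at its first exon with none, 207 bp from a MACS2 peak.

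Further motifs were searched in the central 200 bp. Of 25 motifs, among them WGATAR and its composite forms, 2 (8.0%) differed from the common peaks after adjustment, both lower in the SPP-only peaks. The motif of the SP and KLF zinc-finger factors (GGGGCGG or GGGCGGG or CCACACCC) was found in 3.48% of SPP-only and 8.94% of common peaks (Fisher's exact test, adjusted exact p = 0.0012 over 25 motifs), and in 3.48% and 4.20% of windows 5000 bp to the right. The ETS motif (CCGGAAG or ACAGGAAG) was found in 7.46% and 12.8% (adjusted exact p = 0.018), with 2.24% and 3.08% in the windows. The motif of C/EBP, a family of liver-enriched leucine-zipper factors (TTGCGCAA or TTGCACAA or TTGCATCA or TTGCGTCA) was in 24 SPP-only peaks (5.97%, 4.04 to 8.73) and 3.56% of common peaks (adjusted exact p = 0.16), and in 0.498% and 1.38% of the windows. Among the peaks numbered 2406 and above it was in 6.25% and 2.87% (adjusted exact p = 0.016). The forkhead motif FOXA (TGTTTAC or TGTTTGC) was in 11.9% and 12.2%, and HNF4 (CAAAGTCCA or CAAAGGTCA) in 3.98% and 2.54% (adjusted exact p = 0.29).

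The balance of these motifs turned when whole peaks, which are wider in the SPP-only set, were searched. There 4 motifs were more frequent in the SPP-only peaks and 1 was less frequent. RUNX (TGTGGTT or TGCGGTT) was in 8.71% and 3.95% of the peaks (adjusted exact p = 0.0013), and IRF in 5.97% and 2.81% (adjusted exact p = 0.011). C/EBP was in 6.72% and 3.47% (adjusted exact p = 0.014), and NFY in 11.4% and 7.21% (adjusted exact p = 0.020). The SP and KLF motif stayed lower, with 3.73% and 8.89% (adjusted exact p = 0.0020), while for ETS 10.2% and 12.9% missed the threshold (adjusted exact p = 0.26). In the central 200 bp, RUNX, IRF and NFY were in 6.47%, 3.98% and 7.71% of SPP-only peaks. In the common peaks these shares were 3.99%, 2.52% and 7.08%. None of these differences passed the test (Fisher's exact test, adjusted exact p = 0.16, 0.29 and 0.81). The windows 5000 bp to the right of the SPP-only peaks held RUNX, IRF and NFY in 6.47%, 3.48% and 6.97%. For the windows of the common peaks the shares were 5.38%, 2.47% and 5.76%.

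Of all words of 6 bases, counted together with their reverse complements, 279 (13.4%) differed from the common peaks in the central 200 bp. Of these 126 (6.06%) were more frequent in the SPP-only peaks and 153 (7.36%) less frequent, and 60 of the 153 (39.2%) contained CpG, against 29.04% of all words. The word CCCAGG had the smallest p, with 8.21% of SPP-only and 24.5% of common peaks (Fisher's exact test, adjusted exact p = 1.1e-12). AATGAT was the most significant of the more frequent ones, with 17.4% and 8.46% (adjusted exact p = 2.8e-05). In whole peaks, which are wider in the SPP-only set, 1075 words were more and 42 less frequent. The SPP-only peaks also had the lower GC given above, and the part of base composition in these words was not tested.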

How the data were processed

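GATA4 ChIP-seq of whole mouse liver was analysed as peak lists. The authors aligned reads to mm9 with Bowtie 0.12.7, discarded reads without a unique place, ran a modified SPP and MACS2 2.0.10 on single and merged replicates against input, set thresholds by reproducibility between replicates, and intersected the lists with bedtools 2.16.1. The deposited files give position, number and score, and the score, 1000 in every row, was not used. Input DNA entered only through the peak calls.

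SPP-only peaks shared no base with a MACS2 peak. Members, gene lists and tests were chosen with earlier results of these data known. Sequence came from NCBI Build 37, which is mm9, and genes from GENCODE M1 on that build (95495 transcripts, 22238 protein-coding gene names). Motifs were exact words on both strands. Besides those spelled out in the report they were HNF1, HNF6 (TATTGAT or TATCGAT), the nuclear receptor half-site (TCAAGGTCA or CCAAGGTCA), AP-1 (TGACTCA or TGAGTCA), CRE (TGACGTCA or TGACGCAA), CTCF, the E-boxes CACGTG and CAGCTG, the E-box with GATA, palindromic GATA, NRF1, NFY (CCAATCA or CCAATGA or CCAATAG or CCAATCG), YY1, RUNX, TEAD (GGAATG), SOX (AACAATG or AACAATA or ACAAAGG), STAT, E4BP4 (TTATGTAA or TTACGTAA) and IRF. The second CRE word is the reverse complement of the last C/EBP word, and the GATA motifs overlap. Words of 48 bases, the read length, were counted over the whole genome on both strands.

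Shares were compared by Fisher's exact test, two-sided, with Benjamini-Hochberg adjustment at 0.05 over 16 shares, 25 motifs or all words of 6 bases, and intervals are Wilson and Newcombe intervals at 95% that cover the counting of regions only. The genes named were those nearest to the 10 lowest-numbered SPP-only peaks, to at least 2 SPP-only peaks, to the 10 lowest-numbered ones within 1 kb of a start, to peaks with at least 4 WGATAR, to the 5 nearest to a MACS2 peak, and all members of the gene lists, of which some are counted but not reported here by name. Python 3.11.15, numpy 2.4.6, pandas 2.3.3, scipy 1.17.1, pysam 0.24.0, numba 0.67.0, matplotlib 3.10.9 and samtools 1.23.1 were used. The scripts were first tested on simulated data.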

Additional observations from a re-analysis of the deposited data

How the results depend on the processing

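No paired analysis was possible because the files hold 1 pooled list per caller and no replicates. Differences are SPP-only minus common, in percentage points. Among peaks numbered 2406 and above, WGATAR and its cores in whole peaks differed by 7.61 and 5.01, now past the threshold, non-unique words by 1.31, now short of it, and central WGATAR by 3.44 and the first intron by -0.74, both turned in sign. Among peaks of 320 bp, central WGATAR (5.61), first intron (-0.43) and rest of gene (-1.34) turned in sign, and non-unique words (1.54) missed the threshold. From number 1000 on, WGATAR in whole peaks differed by 5.48, past the threshold, and central WGATAR by 1.11. In 100 bp, 200 bp and 320 bp around the midpoint, WGATAR differed by -1.94, -1.33 and -0.53 and its cores by -2.85, -0.59 and -0.33, and WGATAR in 500 bp by -0.083, all turned in sign. At least 2 WGATAR differed by -3.08 in 100 bp, -0.22 in 200 bp and 5.93 in 320 bp, none past the threshold, but by 6.01 in 500 bp and 9.82 among peaks of 320 bp, both past it. Promoter proximal peaks missed it with protein-coding genes (-4.43) and with the longest transcript of each gene (-4.03), and the first intron was met by midpoints at -0.26. A reach of 10 kb took the downstream class past it (-5.14). A common peak nearby differed by -5.84 within 50 kb and by -4.65 without the SPP-only peaks within 500 bp of MACS2, which use positions that the rule used and so count as no test. Without CpG-rich peaks the share within 1 kb of a start differed by -0.46. In whole peaks 5 motifs (4 higher, 1 lower) and 1117 words (1075 higher, 42 lower) differed, from number 2406 on 3 motifs (1 higher, 2 lower), and with 10 kb 8 list genes were reached. The other 86 tested alternatives kept their direction and their side of the threshold. The cause of these changes was not tested, apart from the width of the window. Those from number 1000 on and without CpG-rich peaks were added after the data were seen. The planned share of repeat sequence was not run, since the sequence used here does not mark repeats. Depth per peak is unknown.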
